A study of Ulmus pumila with 3 samples.

Results

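The 44 new miRNAs of 20 to 23 nt described here are the names in the authors' tables of Siberian elm (Ulmus pumila) small RNA that carry no number of a known miRNA family and whose sequence has that length, leaving out the names of hairpins 1 and 15. They make up 44 of 309 names in all and 44 of 64 new names. In the text, new-3-5p is the 5p arm of the third new hairpin, and a name without an arm, such as new-36, is the single name given for its hairpin. Of the 44 names, 32 are the 5p and 3p arms of 16 hairpins, 11 have no arm in their name, and 1, new-9-5p, has its other arm listed at 24 nt. The members were chosen by name and length and not by level.

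Roots of wild-type seedlings, 30 days old, gave 3 small RNA libraries, 1 per condition. The control seedlings had no added salt, others were given 50 mM NaCl for 6 h, and others 200 mM NaCl for 24 h. Dose and time change together between the salt libraries, so their parts cannot be told apart. There are no replicates, so no test between conditions was possible, and every interval below is a 95% interval that covers counting error only.

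Plant miRNAs are cut from hairpin precursors by a Dicer-like enzyme, which leaves a duplex of the 5p and 3p arms with short overhangs at both 3′ ends. One strand of the duplex, the guide, is loaded into an Argonaute protein and directs cleavage or repression of messenger RNAs with a matching site, while the other strand is usually degraded. In Arabidopsis the main miRNA Argonaute favours guides that begin with U. A large share of reads on 1 arm is therefore the usual pattern of a plant miRNA.

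The sequences that the results turn on are given 5′ to 3′ in RNA letters, as the deposited tables give them, with the seed, bases 2 to 8, in capitals. The first set holds the most counted name, the leading arm of hairpin 4 and both arms of hairpins 3, 5 and 8, which are among the most counted or differed in arm share.
new-36: gGGGAUGUagcucagauggu
new-3-5p: aGGGCAUCucuucauuggcaag
new-3-3p: cGCCAAGAagaguugcccugu
new-4-3p: uUUUGCUAuuggaauccuccu
new-5-5p: uAUUAUUGugauguuuucgaag
new-5-3p: uUCGCAGAcaucacaauaauacu
new-8-5p: uCCCUCCCuaacuuguuucacc
new-8-3p: uGAGCCAAguuagggagagaug
The arms of hairpins 7 and 25 are shown because they pair with each other across hairpins.
new-7-5p: uAAUGAGGagauuucgaagga
new-7-3p: cUUCGAAAucaccucauuaca
new-25-5p: uAAUGAGGugauuucgaaga
new-25-3p: cUUCGAAAucuccucauuaca
The next set holds 2 names without a relation to a numbered family that were past the rule of size given below, new-13-5p and new-21-5p, and the other arm of hairpin 21.
new-13-5p: uCAUGGAUauauuucucgaaau
new-21-5p: uCAUAGAUuaauagugccaau
new-21-3p: uUGGCACUauuaaucuauaag
The last set sets new names beside the numbered names that they pair with or overlap.
new-18: gUGCAAUUcuccuuuggcagc
miR399a: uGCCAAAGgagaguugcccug
new-24: uCAUGCUAucccuuuggaug
miR393a: uUCCAAAGggaucgcauugau
new-10: aCAGGGAAcagacagagcaug
miR408a: uGCACUGCcucuucccuggcu
new-14: uUUGUGUGugaaucuaaagcg
miR403a: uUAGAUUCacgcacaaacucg
new-38-5p: cCUGGCUCccuguaugccauc
miR160a: uGGCAUACagggagccaggca
miR160b: gCCUGGCUcccuguaugccau
new-2-3p: uUUGGAUUgaagggagcucc
miR159a: uUUGGAUUgaagggagcuccu

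The counts of all names summed to 509280 for the control roots, 449522 after 50 mM and 545587 after 200 mM. Levels are given as RPM, reads per 1000000 of these sums, so 1 read was worth 1.96, 2.22 and 1.83 RPM. The tables list miRNA names alone, so the tissue label was not checked against marker genes. Of the 44 members, 35 were listed in all 3 libraries, 6 in 2 and 3 in 1, and a name that a table does not list was taken as 0 counts. The count reached 20 in at least 1 library for 27 members, and the other 17 stayed under it in every library.

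In the control library 4.84% of all counts lay on the members (4.79 to 4.90). The share was 4.44% after 50 mM (4.38 to 4.50), and 3.78% after 200 mM (3.73 to 3.83). Relative to the control, the summed share had a ratio of 0.916 at 50 mM and 0.781 at 200 mM. With TMM scaling, which sets libraries level on the bulk of names, these ratios were 0.954 and 0.986, and with size factors 0.955 and 1.00, so the lower sum at 200 mM depended on the scaling. In bulk roots, fewer cells of a type and less RNA per cell cannot be told apart. The order at 50 mM rested on 1 name: without new-36 the share was 3.16% in the control, 3.45% at 50 mM and 2.45% at 200 mM.

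The most counted member was new-36, with 8572 counts for the control, 4431 for 50 mM and 7281 for 200 mM. It held 34.7%, 22.2% and 35.3% of all member counts. Its level was 16832, 9857 and 13345 RPM, lowest at 50 mM, with a ratio to the control of 0.586 (0.565 to 0.607) at 50 mM and 0.793 (0.768 to 0.818) at 200 mM. The lower level at 200 mM depended on the scaling: with TMM the ratio was 1.00 and with size factors 1.02, while at 50 mM they gave 0.610 and 0.611. It is 20 nt long, has no arm in its name and begins with G. It was the only one of the 309 names to hold the letters of box A, the internal promoter element of tRNA genes, a share of 0.324%. Alanine tRNAs of Arabidopsis are known to begin with a closely similar sequence. No tRNA set was used here, and the origin of the reads was not tested.

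Among the hairpins, new-4-3p was counted most, with a level of 5229 RPM in the control, 4276 at 50 mM and 3761 at 200 mM. The level of new-5-3p was 3809, 3310 and 2141 RPM, and that of new-8-5p was 3169, 3368 and 2528 RPM. As shares of the table sums all 3 were lowest at 200 mM. That order held for new-5-3p under the other scalings tried, but under TMM and size factors new-4-3p at 200 mM was 1.07 and 1.09 times its 50 mM level, and new-8-5p was 1.01 and 1.03 times its control level. The level of new-3-3p was 3261, 3909 and 2126 RPM, and that of its partner arm new-3-5p was 2182, 4689 and 1521 RPM, so both arms were highest at 50 mM. The level of new-10, which has no arm in its name, was 1610, 1072 and 1070 RPM, highest in the control. By contrast, new-9-5p stood at 1072, 1393 and 1613 RPM and was, as shares of the table sums, the one of the 10 most counted members that was highest at 200 mM.

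**Figure D1:**
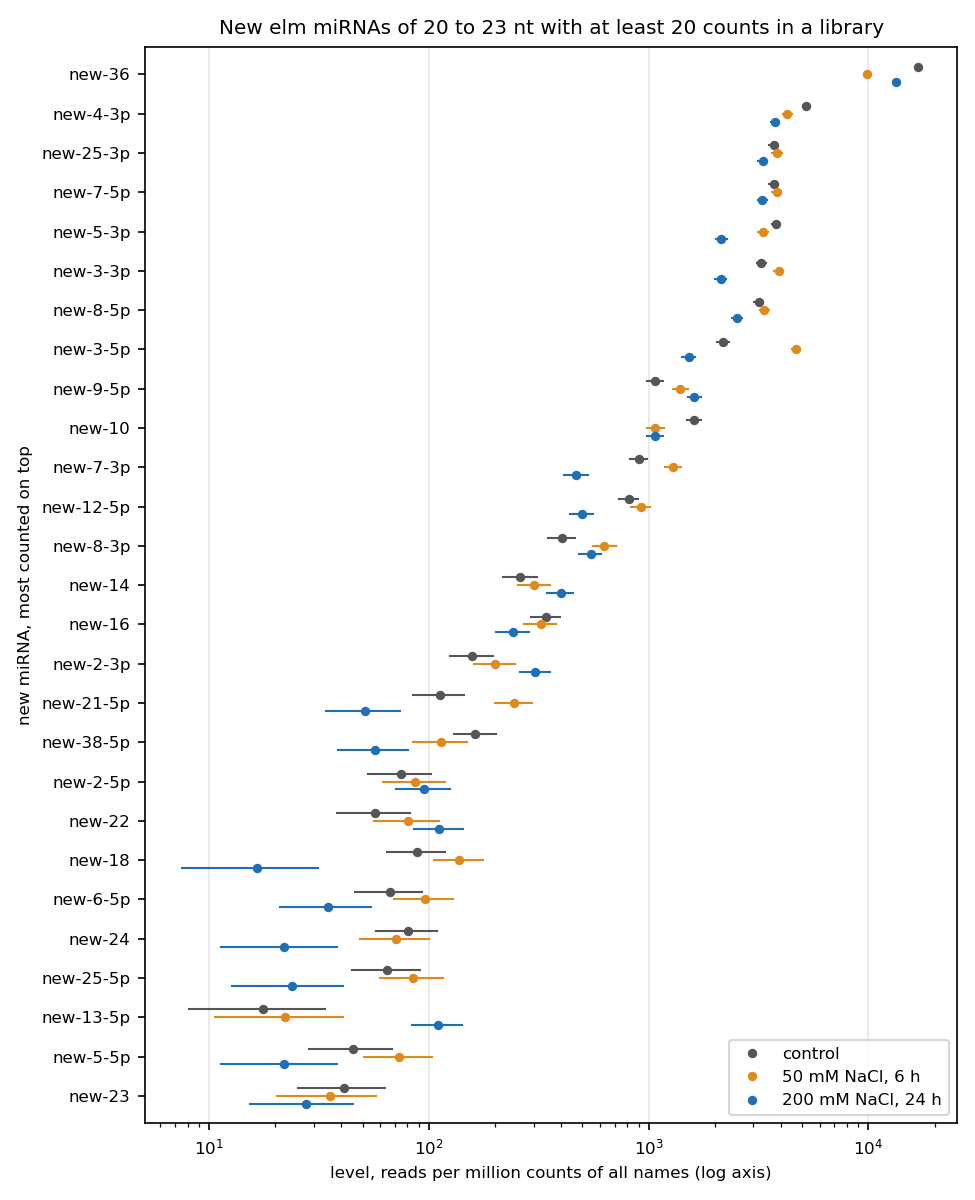
Level in RPM on a log axis of the members that reach 20 counts in a library, 1 point per library with its 95% Poisson interval, most counted on top. The level of new-36 lies above those of all other members in each library, from 9857 to 16832 RPM.

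Levels were compared between libraries for names listed in both and with 20 or more counts in 1 of them. A member is called higher or lower where its ratio was 2 or more in that direction and the interval of the ratio left out 1. At 50 mM for 6 h, 2 of the 26 members compared were higher than in the control and 0 were lower. Among all 162 names compared, 1.85% were higher, 3 names that include these 2, and 3.09% were lower. The median log2 ratio was 0.21 over the members and -0.08 over all names compared. Above 0 were 18 members and below it 8, against 71 and 91 of all names compared.

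The first of the 2 was new-3-5p, with 1111 counts in the control, 2108 at 50 mM and 830 at 200 mM. Its ratio of levels at 50 mM was 2.15 (1.998 to 2.31), and at 200 mM it was 3.08-fold lower than at 50 mM (2.84 to 3.34). The 50 mM library was thus the high one, and the control and the 200 mM library lay below it. The other was new-21-5p, with 57 counts in the control, 110 at 50 mM and 28 at 200 mM. Its ratio to the control was 2.19 at 50 mM (1.57 to 3.07), and at 200 mM it was 2.18-fold lower than the control (1.36 to 3.56). Both comparisons share the control library.

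At 200 mM for 24 h, 1 of 27 members was higher than in the control and 5 were lower, against 3.57% higher and 16.7% lower among the 168 names compared. The members' share of lower calls was near that background. The median log2 ratio was -0.52 over the members and -0.40 over all names. Above 0 were 7 members and below it 20, against 45 and 123 of all names compared. The higher one was new-13-5p, with 9 counts in the control, 10 at 50 mM and 60 at 200 mM. Its ratio to the control was 6.22 (3.07 to 14.3) and to the 50 mM library 4.94 (2.51 to 10.8), so the 200 mM library alone was high. Its other arm, new-13-3p, had 2, 0 and 3 counts.

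Of the 5 lower ones, new-18 differed most, with 45 counts in the control, 62 at 50 mM and 9 at 200 mM. It was 5.36-fold lower at 200 mM than in the control (2.59 to 12.5). The counts of new-24 were 41, 32 and 12, which gave a level 3.66-fold lower at 200 mM (1.89 to 7.65). Those of new-38-5p were 83, 51 and 31, a level 2.87-fold lower (1.88 to 4.48), and those of new-25-5p were 33, 38 and 13, a level 2.72-fold lower (1.39 to 5.63). All 4 were lowest at 200 mM, and the fifth was new-21-5p. Under the 3 other scalings tried, new-21-5p was no longer called lower, and new-2-3p and new-22 were called higher. The counts of new-2-3p were 80, 90 and 166 and those of new-22 were 29, 36 and 61, with ratios to the control of 1.94 and 1.96 under the reported scaling. These scalings moved every log2 ratio at 200 mM against the control up by 0.34, 0.36 and 0.15.

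Between the salt libraries, 1 of 26 members was higher at 200 mM, new-13-5p, and 8 were lower, against 6.29% higher and 18.9% lower among all names compared. The median log2 ratio was -0.41 over the members and -0.23 over all names. The level of new-18 was 8.36-fold lower (4.13 to 19.1), that of new-21-5p 4.77-fold lower (3.13 to 7.50) and that of new-24 3.24-fold lower (1.62 to 6.90). Of the 8, 4 were the less counted arms of their hairpins over the 3 libraries together: new-3-5p, new-5-5p, new-7-3p and new-25-5p. At 50 mM, though, new-3-5p was the more counted arm, with 2108 counts against 1757. Less counted arms made up 6 of the 26 members compared, and at 200 mM against the control they were 1 of the 5 lower members. Outside the members, some such arms went the other way. From 50 mM to 200 mM, new-1-3p went from 889 to 3986 counts, new-11-3p from 9 to 253 and new-15-5p from 40 to 116. By contrast, new-9-3p went from 61 to 25. The counts of new-7-3p were 459, 580 and 256, with a level 2.75-fold lower at 200 mM than at 50 mM (2.37 to 3.20), and those of new-5-5p were 23, 33 and 12, a level 3.34-fold lower (1.68 to 7.10). The last, new-6-5p, had 34, 43 and 19 counts and was 2.75-fold lower (1.57 to 4.99).

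**Figure D2:**
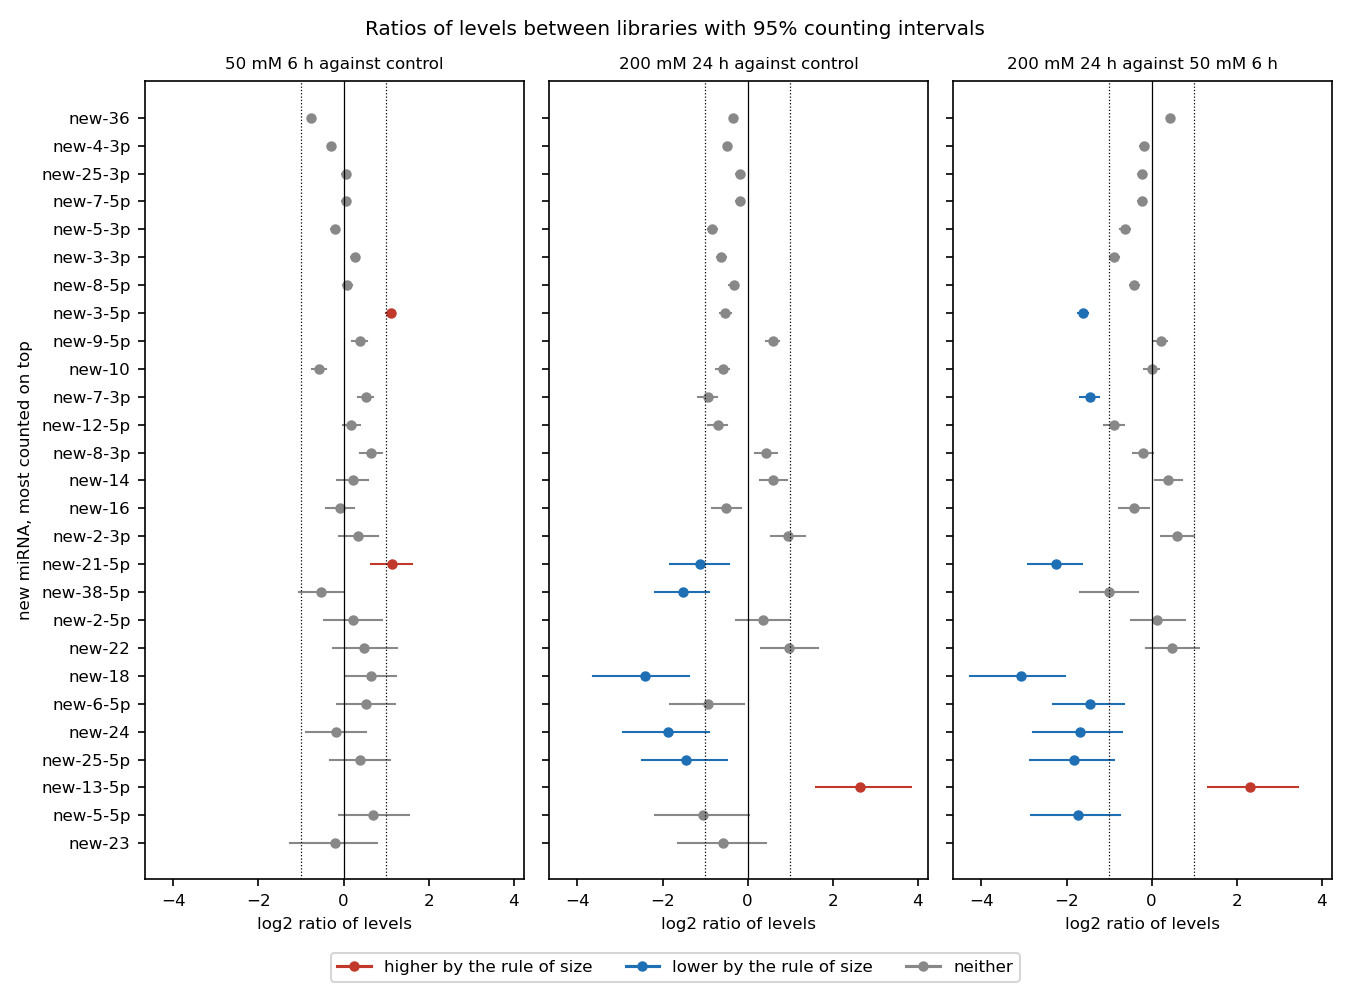
Log2 ratio of levels between libraries with its 95% counting interval for the members compared, 1 panel per comparison; dotted lines mark ratios of 2 in each direction, and colours mark members past the rule of size. The one red point at 200 mM, in both panels, is new-13-5p, with ratios of 6.22 and 4.94.

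The share of a hairpin's counts on its 5p arm needs no scaling between libraries. For hairpin 3 the 5p share was 40.1% (38.2 to 41.9) in the control. It was 54.5% (53.0 to 56.1) after 50 mM, against 41.7% (39.5 to 43.9) after 200 mM. The more counted arm was thus 3p in the control and at 200 mM and 5p at 50 mM. The odds of the 5p arm at 50 mM were 1.79 times those of the control (1.62 to 1.98), and at 200 mM 1.07 times (0.950 to 1.20).

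For hairpin 7 the 3p share was 19.6% in the control, 25.2% at 50 mM and 12.5% at 200 mM, and the odds of the 5p arm relative to the control were 0.723 (0.628 to 0.833) and 1.71 (1.44 to 2.03). The salt libraries lay on opposite sides of the control. For hairpin 8 the 3p share was 11.3%, 15.7% and 17.7%, and its odds relative to the control were 1.47 (1.21 to 1.79) and 1.70 (1.39 to 2.07), so both salt libraries lay above the control. For hairpin 25 the 5p share was 1.72%, 2.15% and 0.717%, with odds at 200 mM of 0.413 (0.199 to 0.810). The 5p share of hairpin 5 was 1.17%, 2.17% and 1.02%, and its odds at 50 mM were 1.87 (1.06 to 3.35).

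Fewer counts lay behind the other differences. Hairpin 12 had 18, 6 and 8 counts on its 3p arm, and its 5p share was 95.8%, 98.6% and 97.1%. Hairpin 21 had 13, 9 and 0 counts on its 3p arm, and its 5p share was 81.4%, 92.4% and 100%. The 5p share of hairpin 2 was 32.2%, 30.2% and 23.9%, that of hairpin 6 was 97.1%, 93.5% and 90.5%, and that of hairpin 38 was 96.5%, 100% and 96.9%, each with overlapping intervals between libraries. Hairpin 4 was the most one-sided of the well counted ones, with a 5p share of 0.337%, 0.156% and 0.195%. Of the 11 hairpins compared, the interval of the odds left out 1 in 6 at 50 mM against the control, in 4 at 200 mM against the control and in 4 between the salt libraries. Hairpins 7 and 25, whose leading arms are complementary and nearly equal in counts, were both among the 4 at 200 mM against the control. They were also both among the 4 between the salt libraries. Leaving them out thus leaves 2 hairpins in each comparison and says nothing of the others. Among all 16 new hairpins compared, the 5p share was higher in 31.2% and lower in 18.8% at 50 mM, 25% and 25% at 200 mM, and 18.8% and 31.2% between the salt libraries.

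**Figure D3:**
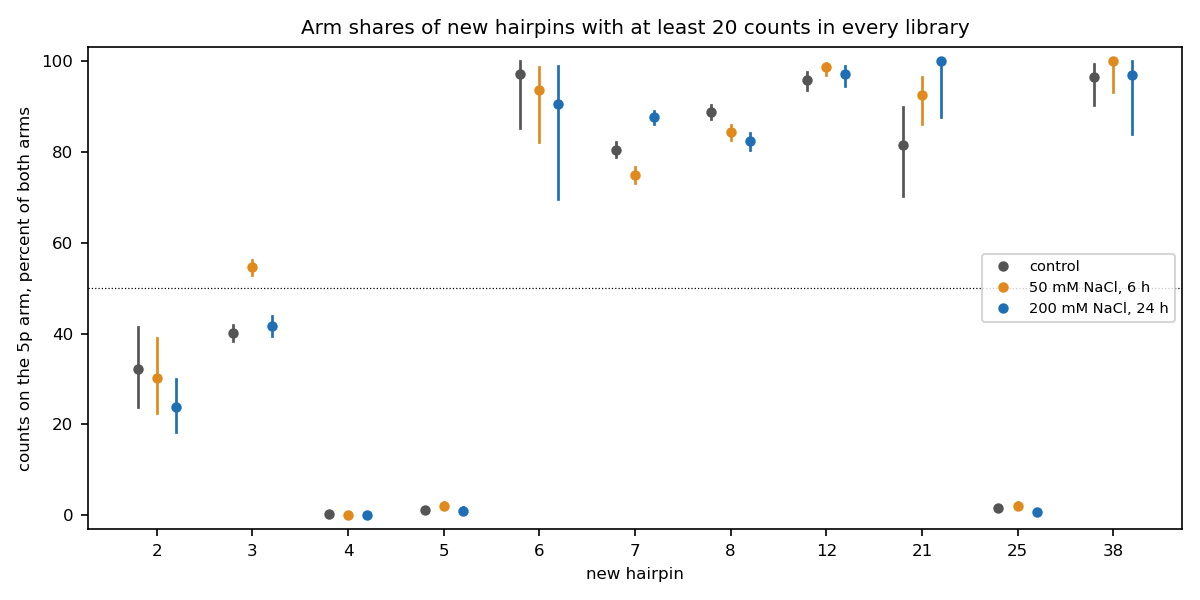
Share of counts on the 5p arm, in percent, for the 11 hairpins with both arms among the members and at least 20 counts in every library, 1 point per library with its 95% binomial interval. For hairpin 3 the 50 mM point, at 54.5%, lies above the control at 40.1% and the 200 mM point at 41.7%.

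The more counted arm was 5p in 10 of the 16 hairpins and 3p in 6. It began with U in 11 of 16 and the other arm in 9 of 16. Folded together, the arms of 6 hairpins, 3, 7, 8, 12, 13 and 28, left an overhang of 2 nt at both 3′ ends, the form a Dicer cut leaves, and 13 of 16 left 1 to 3 nt at both. The arms of hairpin 38 formed 11 pairs with overhangs of 5 nt, against a median of 18 pairs over the 16. Of the hairpins too thinly counted to compare, hairpin 13 had 11, 10 and 63 counts on both arms together, hairpin 28 had 15, 16 and 6, hairpin 30 had 13, 12 and 6, hairpin 39 had 9, 4 and 10, and hairpin 34 had 3, 1 and 0. For hairpin 9, whose 3p arm is 24 nt long, the 5p share was 89.8%, 91.1% and 97.2%.

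Hairpins 7 and 25 are tied by sequence. The leading arms new-7-5p and new-25-3p are complementary over 19 nt with 0 mismatches, and their counts differed by 4, 3 and 5 reads in the 3 libraries. Their levels were 3701, 3833 and 3292 RPM for new-7-5p and 3709, 3840 and 3301 RPM for new-25-3p. The lesser arms new-7-3p and new-25-5p are also complementary over 19 nt with 0 mismatches, yet new-7-3p had 13.9, 15.3 and 19.7 times the counts of new-25-5p. The 5p arms of these hairpins share a seed, and so do the 3p arms. Whether the same reads were counted under both leading names was not tested.

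Of the 44 members, 15 met the limits used for a relation by sequence to a numbered name, as a duplex partner or by overlap. The other 29 did not, though they include new-38-3p and new-39-3p, whose partner arms are related. The related ones were 7 of the 11 names without an arm and 8 of the 33 with one. They held 17.2%, 24.7% and 15.6% of member counts. Within these, new-3-5p held 4.50%, 10.6% and 4.02% of member counts and new-3-3p 6.73%, 8.80% and 5.62%. The shares of both arms of hairpin 3 were thus highest at 50 mM. Of the 2 arms, new-3-3p met these limits only as a duplex partner of miR169h, which had 1, 2 and 1 counts. Its letters also resemble those of miR399a, given above, but with a gap, which the overlap limit does not allow. A pair here is a new name and the most counted numbered name that it forms a duplex with, as the arms of a hairpin do, or, for new-14, that it overlaps on the opposite strand.

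MiR399 acts on the ubiquitin-conjugating enzyme that limits phosphate uptake, and new-18, which pairs with miR399a, had 0.251, 0.287 and 0.0841 counts per count of miR399a. Relative to miR399a it was 2.98-fold lower at 200 mM than in the control (1.37 to 7.22). These values depend on the family member chosen: per count of miR399b it had 0.918, 0.816 and 0.220, and per count of miR399c 3.21, 0.646 and 0.474. The value at 200 mM was below that of the control with all 3, though miR399c had only 14, 96 and 19 counts. At 50 mM, of these 3, it was above the control with miR399a alone, by 1.14 times (0.726 to 1.81). With rarer members of the family it was above the control for some, such as miR399d, and below for others, such as miR399h. Hairpin 3 also meets this family: new-3-5p had 6.21, 9.76 and 7.76 counts per count of miR399a, but 79.4, 21.96 and 43.7 per count of miR399c, so its direction at 50 mM turned with the partner. MiR393 acts on auxin receptors, and new-24, its partner by pairing, had 0.695, 0.344 and 0.188 counts per count of miR393a. The ratio was 2.01-fold lower at 50 mM (1.10 to 3.70), where new-24 itself had a ratio to the control of 0.884 (0.539 to 1.44) and miR393a, with 59, 93 and 64 counts, one of 1.79 (1.28 to 2.52). At 200 mM the ratio was 3.68-fold lower (1.70 to 8.46), with miR393a at 1.01 times the control (0.700 to 1.47). MiR160 acts on auxin response factors. Per count of miR160a, new-38-5p had 0.110, 0.0683 and 0.0981 counts, 1.61-fold lower at 50 mM (1.10 to 2.36). No other miR160 name pairs with new-38-5p. The sequence of miR160a is the reverse complement of miR160d, with which new-38-5p shares 19 nt on its own strand. The counts of miR160a, 755, 747 and 316, are also those of miR160b and miR160c, which lie on the opposite strand and overlap new-38-5p on its own strand. Whether the same reads were counted under these names was not tested.

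MiR408 acts on copper proteins, and new-10 had 1.34, 1.25 and 1.29 counts per count of miR408a, with changes against the control of 0.932 (0.783 to 1.11) and 0.960 (0.814 to 1.13). Here too a name on the opposite strand, miR408c, had nearly the counts of miR408a. MiR156 acts on SPL transcription factors, and new-16 had 0.198, 0.218 and 0.202 counts per count of miR156a. Per count of miR156c, new-16 had 0.806, 0.884 and 0.815. Per count of the rarer miR156e, which had 28, 10 and 13 counts, new-16 had 6.21, 14.5 and 10.2. That was 2.33 times the control at 50 mM (1.05 to 5.56). MiR171 acts on GRAS-family transcription factors, and new-23 had 0.0265, 0.0190 and 0.0287 counts per count of miR171a. MiR403 acts on an Argonaute gene, and new-14 had 0.248, 0.256 and 0.381 counts per count of miR403a, 1.54 times as many at 200 mM as in the control (1.20 to 1.99), but 0.855 times as many (0.360 to 1.92) per count of the rarer miR403b. Of 9 pairs compared with the control, each with the most counted partner, the interval left out 1 in 3 at 50 mM and in 3 at 200 mM. No share over other pairs of names was computed to set beside these counts. The direction turned with the partner for new-3-5p at 50 mM and for new-14 at 200 mM. MiR398 acts on copper superoxide dismutases, and new-20, its partner, had 6, 0 and 5 counts beside 476, 252 and 732.

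**Figure D4:**
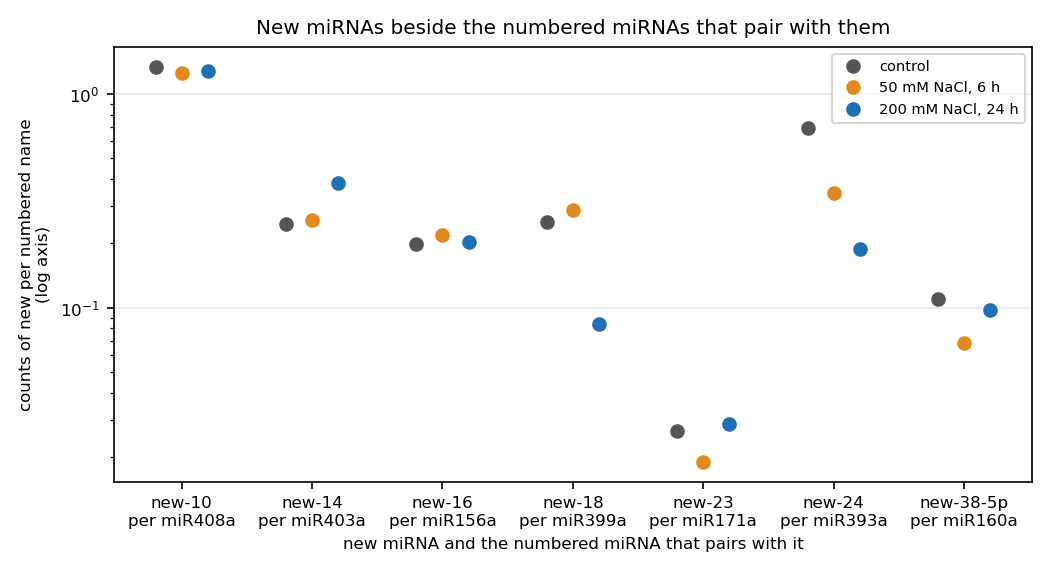
Counts of a new name per count of the numbered name it pairs with, on a log axis, 1 point per library, with no interval drawn. The 200 mM point of new-18 with miR399a, at 0.0841, and of new-24 with miR393a, at 0.188, lie below their control points at 0.251 and 0.695.

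Some members are numbered miRNAs but for a few bases. The sequence of new-2-3p is the first 20 nt of miR159a, which acts on MYB transcription factors, and its 80, 90 and 166 counts stood beside 80704, 81266 and 130976 of miR159a. That of new-39-5p is the first 20 nt of miR167a, with 9, 4 and 9 counts beside 1770, 1444 and 1341. That of new-30-5p differs from miR535a by 1 mismatch over 21 nt, and new-38-5p shares 20 nt with miR160b. That of new-24 differs from miR393e by 1 mismatch over 20 nt, with 41, 32 and 12 counts beside 2, 1 and 1. These 3 seeds, of new-2-3p, new-30-5p and new-39-5p, were the only ones of the 44 that a numbered name shares.

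By length, 7 members have 20 nt, 27 have 21 nt, 6 have 22 nt and 4 have 23 nt. The first base was U in 26, C in 8, A in 7 and G in 3. The share beginning with U was 59.1%, against 70.7% of the 229 numbered names of the same lengths and 12.5% of the 16 new names of 24 nt, of which 75% began with A. Weighted by counts, names beginning with U held 40.1%, 43.2% and 41.3% of the members' counts. Among the numbered names they held 97.8%, 98.0% and 98.2%. Of the members' counts, 34.7%, 22.2% and 35.3% lay on new-36, which begins with G, so this difference rests in part on 1 name.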

How the data were processed

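Per the labels' protocols, Trizol was used to extract the root RNA and an NEBNext kit to build the Illumina small RNA libraries. How reads were trimmed, aligned and assigned to names and strands is not given in the labels. The authors deposited whole read counts for each miRNA name, per the file headers. Beside them the authors deposited TPM values, which equal the count per 1000000 of the table's sum (largest difference 3.5e-05), carry no length correction and are called RPM. The members, lists and tests were chosen with earlier results of these data known.

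From the counts, ratios (exact conditional binomial intervals, Clopper-Pearson), levels (Poisson) and arm shares (binomial) were computed with 95% intervals. The intervals cover counting error only, since there was 1 library per condition. Amplified reads are not independent molecules, so the intervals may be too narrow even for counting error. The rule of size asked for 20 counts in 1 library, a ratio of at least 2 and an interval that leaves out 1. It was tested on simulated Poisson counts. These hold no variation between libraries, so they do not show how the rule fares with 1 library per condition. The text names the 10 most counted members, those past that rule, those with both arms and those related to another name. Duplexes were folded with ViennaRNA 2.7.2. Pairs needed 15 paired bases, 3′ overhangs of 1 to 3 nt and at most -20 kcal/mol, or else an overlap of 16 nt on the opposite strand with at most 2 mismatches, limits set after values were seen. Other scalings came from edgeR 4.0.16 (TMM) and DESeq2 1.42.0 (size factors), with Python 3.11.15, scipy 1.17.1 and R 4.3.3. No genome was used, so no coordinates are given.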

Additional observations from a re-analysis of the deposited data

Results flagged for a closer look

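The level of new-21-5p was set apart because the salt libraries lay on opposite sides of the control: 2.19 times the control at 50 mM for 6 h and 2.18-fold lower at 200 mM for 24 h. Under the 3 other scalings tried, its level at 200 mM was 0.579, 0.590 and 0.508 of the control, on the same side but no longer past the ratio of 2. It was 4.77-fold lower at 200 mM than at 50 mM. With 1 library per condition the difference between conditions was not tested, and the 57, 110 and 28 counts set its precision.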

How the results depend on the processing

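Of the member ratios recomputed under another scaling, 108 of 168 stayed within the reported interval, 60 fell outside it and 0 called ratios changed direction, while 17 that were not called turned direction. At 50 mM against the control, the 2 higher calls became 4 with a ratio of 1.5, and the 0 lower calls became 1 with no count minimum and 2 with a ratio of 1.5. At 200 mM against the control, the 1 higher call became 3 with TMM, 3 with size factors, 3 with totals without miR159a and 5 with a ratio of 1.5. The 5 lower calls became 2 with a minimum of 50 counts, 8 after joining near-equal names and 11 with a ratio of 1.5. Between the salt libraries, the 1 higher call became 2 with a ratio of 1.5. The 8 lower calls became 4 with 50 counts, 12 with a ratio of 1.5, and 9 with no count minimum or after joining near-equal names. The summed share was 7.48%, 6.51% and 5.19% after joining, 3.16%, 3.45% and 2.45% without new-36, and 5.76%, 5.42% and 4.98% of totals without miR159a. The ratio of summed member levels, rescaled after seeing the data with TMM, size factors and totals without miR159a, was 0.954, 0.955 and 0.941 at 50 mM against the control, 0.986, 1.00 and 0.864 at 200 mM against the control, and 1.03, 1.05 and 0.918 between the salt libraries, against 0.852 as reported for the last. Without hairpins 7 and 25, an alternative chosen after seeing the data, 2 of 4 differing hairpins remained at 200 mM against the control and 2 of 4 between the salt libraries. Hairpins 7 and 25 were themselves among the 4 each time, so this does not test the other hairpins. The causes were not tested. The 17 members under 20 counts in every library are limited by depth.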
